A study of Mus musculus with 2 samples.

Results

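The genes of calcium/calmodulin-dependent protein kinase II (CaMKII) and of the small proteins that bind it or its activator were measured in the left cerebral cortex: the 4 kinase subunit genes Camk2a, Camk2b, Camk2d and Camk2g, the inhibitor genes Camk2n1 and Camk2n2, the calmodulin-binding Nrgn, and the calmodulin genes Calm2 and Calm3. These 9 genes were chosen by name, out of 55536 annotated genes, and other calmodulin genes were not analysed here. Total RNA came from left cortex tissue of B6CASTF1/J females, F1 hybrids between the C57BL/6J and CAST/EiJ strains, at an age of 2 months and with no treatment named in the labels. Each library started from 300 ng of RNA and spike-in RNAs of a profile for stranded libraries depleted of ribosomal RNA. There was 1 group with 2 biological replicates, 1 library each, and no second condition. Both labels carry the same donor entry and none says in words that the replicates were separate animals, so their spread may be technical.

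CaMKII is a kinase of many subunits that calcium-loaded calmodulin switches on and that can then phosphorylate itself and stay active after calcium has fallen. In cortical excitatory neurons it is among the most abundant proteins of the postsynaptic density and is known for its role in synaptic plasticity. Each subunit has a kinase domain, a regulatory segment that binds calmodulin, a linker of variable length and an association domain, and alternative splicing acts mainly on the linker. The proteins of Camk2n1 and Camk2n2 bind the active kinase and block it. Neurogranin, the product of Nrgn, holds calcium-free calmodulin through an IQ motif.

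Levels are given as TPM, which corrects counts for transcript length and gives every library the same sum, as mean ± SD over n = 2 libraries. They come from the gene tables derived from alignments (alignment-based) unless the tables derived directly from the reads (read-based) are named. The libraries held 31196858 and 32292150 expected counts. Nuclear protein-coding genes took 46.7% of TPM in replicate 1 and 44.1% in replicate 2, so a gene with an equal share of mRNA in both libraries has a slightly lower TPM in replicate 2. The cortical excitatory markers Slc17a7, Tbr1 and Neurod6 were all above 1 TPM in both libraries and summed to 639 and 606 TPM. Markers of some other cells moved between the libraries. All 3 striatal projection neuron markers were lower in replicate 2 (summed 232 and 180 TPM), and the 3 oligodendrocyte markers summed to 401 and 439 TPM. Of the choroid plexus markers Ttr had 6.12 and 34.3 TPM, while Kl had 1.58 and 1.81 and Clic6 1.00 and 1.12. Muscle markers summed to 3.45 and 5.28 TPM. Sums were close for inhibitory neurons (274 and 276 TPM), astrocytes (146 and 145), microglia (72.1 and 71.3) and endothelium (63.9 and 63.3). These bulk libraries cannot tell fewer cells of a type from less RNA per cell, and the part of these markers in the differences below was not tested.

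Camk2a had the highest TPM of the 9 genes in both libraries. Camk2a (ENSMUSG00000024617.16, chromosome 18, 60925618 to 60988152, plus strand, mm10), which encodes the alpha subunit of forebrain neurons, had 1165 TPM in replicate 1 and 1111 in replicate 2 (1138 ± 37.8). It ranked 3 and 2 in the libraries among 22015 nuclear protein-coding genes, and 5 and 6 in the read-based tables. Camk2a-207, an incomplete transcript of 530 bases, gave 263 and 231 of the alignment-based TPM from 2.57% of the counts of Camk2a. In each library this exceeded the lead of Camk2a over Calm2, which had 979 and 891 TPM. The first place by alignment-based TPM thus depended on how this fragment was counted. Camk2b (ENSMUSG00000057897.14, chromosome 11, 5969644 to 6066362, minus strand), which encodes the beta subunit that binds actin filaments, stood at 298 and 275 TPM (287 ± 16.3). Camk2g (ENSMUSG00000021820.18, chromosome 14, 20734875 to 20794088, minus strand), for the gamma subunit, stood at 157 and 140 TPM (149 ± 11.7). Camk2d (ENSMUSG00000053819.16, chromosome 3, 126596302 to 126846326, plus strand), for the delta subunit, which is the main form in heart, stood at 84.2 and 75.4 TPM (79.8 ± 6.21). The 4 subunit genes did not overlap in level over the libraries, in the order Camk2a, Camk2b, Camk2g, Camk2d.

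Camk2a made up 68.3% and 69.3% of the summed TPM of the 4 subunit genes (68.8% ± 0.714). Camk2b made up 17.3% ± 0.231, Camk2g 8.98% ± 0.317 and Camk2d 4.82% ± 0.165. The ratio of Camk2a to Camk2b was 3.90 in replicate 1 and 4.03 in replicate 2. In the read-based tables the shares were 68.3% for Camk2a, 17.0% for Camk2b, 9.97% for Camk2g and 4.78% for Camk2d, so the order of the subunit genes was the same in both quantifications. By expected counts, which are not corrected for length, Camk2g (5.34%) and Camk2d (4.48%) were closer. Incomplete coding transcripts held 32.8% of the TPM of Camk2g and 9.38% of its counts.

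The inhibitor genes were far apart in level. Camk2n1 (ENSMUSG00000046447.3, chromosome 4, 138454314 to 138460123, plus strand) stood at 595 and 570 TPM (582 ± 18.0), above Camk2b in both libraries. Camk2n2 (ENSMUSG00000051146.2, chromosome 16, 20619215 to 20621287, minus strand) stood at 86.1 and 82.0 TPM (84.0 ± 2.91). The ratio of Camk2n1 to Camk2n2 was 6.91 and 6.95, and 8.25 and 8.37 when read-based. Summed over both genes, inhibitor transcripts were 0.400 and 0.407 per transcript of the 4 subunit genes. The spliced coding sequences (GRCm38, spans with introns) show how close the inhibitors are, with capitals at bases that differ between them when aligned by codon:
Camk2n1 coding sequence (chr4:138455186-138456788, plus strand): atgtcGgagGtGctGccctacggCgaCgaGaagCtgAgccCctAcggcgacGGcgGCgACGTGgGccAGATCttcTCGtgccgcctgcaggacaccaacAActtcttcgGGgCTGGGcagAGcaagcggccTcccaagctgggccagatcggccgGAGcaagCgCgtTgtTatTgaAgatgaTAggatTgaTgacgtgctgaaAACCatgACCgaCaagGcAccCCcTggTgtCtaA
Camk2n2 coding sequence (chr16:20620173-20621194, minus strand): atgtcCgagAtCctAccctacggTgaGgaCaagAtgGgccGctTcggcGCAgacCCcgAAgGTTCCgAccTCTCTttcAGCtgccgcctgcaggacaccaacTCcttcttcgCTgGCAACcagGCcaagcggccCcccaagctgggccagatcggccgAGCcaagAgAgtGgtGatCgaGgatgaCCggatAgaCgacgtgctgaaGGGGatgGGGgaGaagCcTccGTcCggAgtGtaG
Of 79 aligned codons, stop codon included, 45 differed and 25 of these encode another residue, and 1 codon of Camk2n2 had no partner. The longest run of identical bases was 23.

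Nrgn and the calmodulin genes lay just below Camk2a. Nrgn (ENSMUSG00000053310.11, chromosome 9, 37544492 to 37552904, minus strand) stood at 810 and 834 TPM (822 ± 17.1), with ranks 21 and 13 among nuclear protein-coding genes. Its spliced coding sequence, 78 codons before the stop, is shown with the codons of its IQ motif, codons 33 to 43, in capitals:
Nrgn coding sequence (chr9:37545953-37552551, minus strand): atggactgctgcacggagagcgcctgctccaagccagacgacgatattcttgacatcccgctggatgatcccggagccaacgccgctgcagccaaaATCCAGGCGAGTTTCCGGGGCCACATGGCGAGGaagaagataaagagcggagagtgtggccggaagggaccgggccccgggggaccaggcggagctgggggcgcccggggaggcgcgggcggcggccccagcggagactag
Calm2 (ENSMUSG00000036438.13, chromosome 17, 87433412 to 87446935, minus strand) stood at 979 and 891 TPM (935 ± 62.7). Calm3 (ENSMUSG00000019370.10, chromosome 7, 16915379 to 16924114, minus strand) stood at 782 and 785 TPM (783 ± 1.78). Both encode calmodulin, the calcium sensor that activates the kinase. Their summed TPM was 1.03 times that of the 4 subunit genes in replicate 1 and 1.05 times in replicate 2, and Nrgn stood at 0.460 and 0.498 of the summed calmodulin TPM. The longest coding exon of each gene is shown to set the difference between them, with capitals at the bases that differ:
Calm2 exon (chr17:87435791-87435934, minus strand): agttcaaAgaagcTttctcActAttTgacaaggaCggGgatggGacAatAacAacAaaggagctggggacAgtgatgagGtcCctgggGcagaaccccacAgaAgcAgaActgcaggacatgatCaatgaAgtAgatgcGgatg
Calm3 exon (chr7:16917585-16917728, minus strand): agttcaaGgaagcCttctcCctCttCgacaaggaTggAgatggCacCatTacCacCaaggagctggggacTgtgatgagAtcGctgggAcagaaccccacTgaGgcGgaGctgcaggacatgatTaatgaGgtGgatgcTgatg
Over the whole coding sequence 78 of 450 bases differed, 82.7% were identical, and the longest identical run was 17 bases. Of 150 codons 76 differed and 0 of them changed the residue, so the coding sequences differ in silent bases alone.

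The order of levels depended on the quantification at 2 places. In the read-based tables Nrgn averaged 1449 TPM and Calm2 1399 TPM, with overlapping ranges, while in the alignment-based tables Calm2 was above Nrgn in both libraries. Camk2n2 and Camk2d overlapped in the alignment-based tables, and in the read-based tables Camk2d (126 TPM) was above Camk2n2 (109 TPM) in both libraries. Read-based TPM has another base, since nuclear protein-coding genes take 76.0% of it. Over those genes alone, Camk2n2 was 0.777 times as high in the read-based tables as in the alignment-based ones, and the other 8 genes were between 0.894 and 1.06 times.

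**Figure D1:**
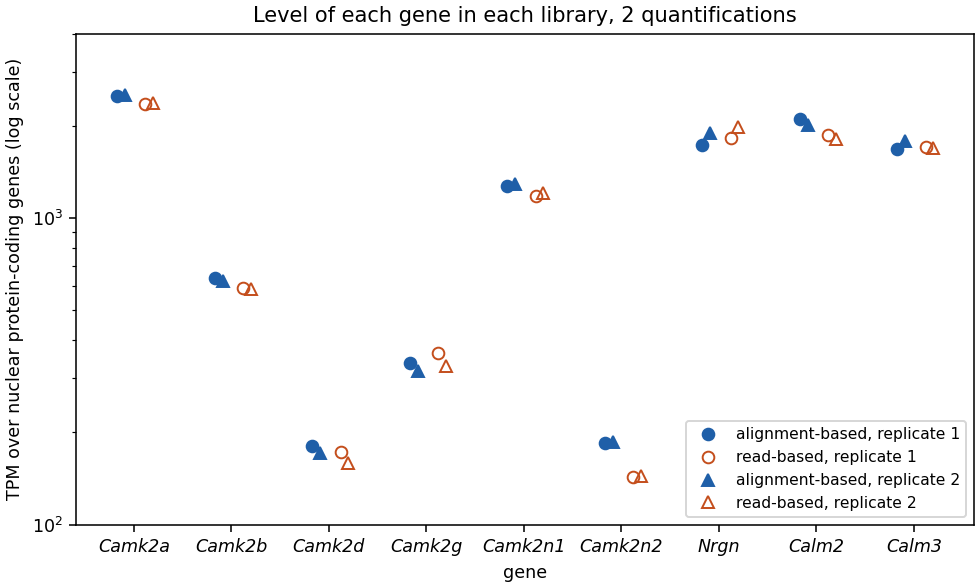
TPM of the 9 genes recomputed over nuclear protein-coding genes alone, on a log scale, for both libraries (circle, replicate 1; triangle, replicate 2) in the alignment-based and the read-based tables. The libraries lie close together for every gene, and the widest gap between tables is that of Camk2n2.

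The scaled counts of the 2 libraries differed little for all 9 genes, with log2 ratios of 0.12 or less in size. Ratios of replicate 2 over replicate 1 were taken from scaled counts, with exact 95% intervals that cover counting error only, and a gene was called different when its interval lay wholly beyond 2-fold. Of the 9 genes 0 were called. Among the 18562 genes whose mean count reached 10, 57 were called (0.307%). At so low a share, 0 calls are no result about the 9 genes. The 9 genes also gave 0 calls with total-count scaling, where 0.296% of all genes were called, with read-based counts (0.218%) and with a 1.5-fold limit (0.479%). The share called over all genes was 0.155% with no minimum count and 0.0934% with a minimum count of 100. The largest ratio was that of Nrgn, with counts of 22331 and 24551 and a log2 ratio of 0.12 (0.089 to 0.14). Calm3 counts were 34912 and 37578 (log2 ratio 0.085, 0.064 to 0.11), and Camk2a counts 85482 and 90297 (0.058, 0.044 to 0.071). Calm2 counts were 21892 and 21363 (-0.056, -0.084 to -0.029). For these 4 of 9 genes the interval left out a ratio of 1, with 3 above it and Calm2 below, against 15.1% of all genes and 25.7% of the 5679 genes whose mean count reached 1000, 919 above and 541 below. The log2 ratio of Camk2b was -0.021 (-0.047 to 0.0059), of Camk2g -0.0090 (-0.059 to 0.041), of Camk2d -0.0093 (-0.064 to 0.045), of Camk2n1 0.015 (-0.0021 to 0.033) and of Camk2n2 0.0075 (-0.080 to 0.095). The median size of the log2 ratio was 0.021 over the 9 genes, 0.091 over all genes and 0.044 over genes whose mean count reached 1000. Camk2a, Camk2n1 and Camk2n2 were lower in replicate 2 by TPM and higher by scaled count. Over nuclear protein-coding genes alone, TPM was 2494 and 2518 for Camk2a, 1274.5 and 1291 for Camk2n1, and 184 and 186 for Camk2n2.

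**Figure D2:**
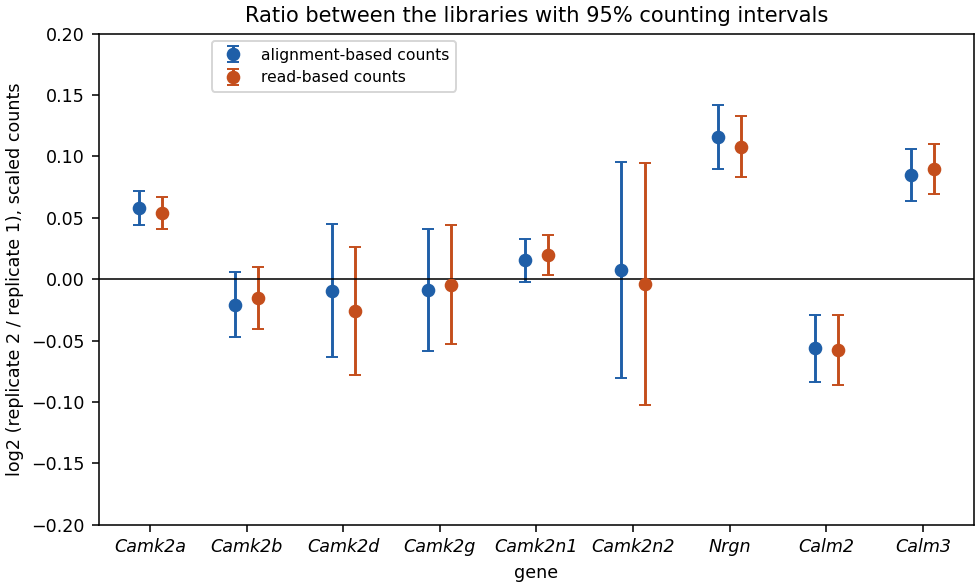
Log2 ratio of replicate 2 over replicate 1 from TMM-scaled counts, with exact 95% counting intervals, for alignment-based and read-based counts. Nrgn, Calm3 and Camk2a lie above 0 and Calm2 below, all far inside the 2-fold limit, which is off the axis at 1 and -1.

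Each of the 4 subunit genes has several annotated transcripts, and the leading transcript of Camk2g depended on the quantification. Camk2a-203 held 64.6% and 67.8% of the TPM of Camk2a (66.2% ± 2.26), and 88.3% ± 0.963 of its expected counts. Camk2a-207, a fragment of 530 bases with incomplete ends, held 22.6% and 20.8% of TPM but 2.57% ± 0.209 of counts, since TPM divides by length. Camk2a-202 held 1.45% ± 0.0687 in the alignment-based tables and 12.7% ± 0.158 in the read-based ones. Camk2b was led by Camk2b-209, with 86.8% and 88.7% of TPM (87.7% ± 1.37). Camk2d was spread over 28 transcripts: Camk2d-206 led with 25.9% and 31.3% (28.6% ± 3.83), and 12 retained-intron transcripts together held 26.1% ± 0.964 of TPM and 12.9% ± 0.856 of expected counts. For Camk2d-206 the deposited posterior SD of the count was 199 of 1820 counts in replicate 1 and 197 of 2113 in replicate 2. Camk2g-203 led with 20.1% and 24.6% of TPM. It was followed by Camk2g-201 with 20.0% and 18.4% and by Camk2g-212, an incomplete transcript of 673 bases, with 17.8% and 21.1%, so another transcript was second in each library. In the read-based tables Camk2g-203 held 13.2% on average, Camk2g-201 22.2% and Camk2g-212 23.7%. By expected counts Camk2g-201 led in replicate 1 (2312 counts, posterior SD 263, against 2232, SD 223, for Camk2g-203) and Camk2g-203 in replicate 2. By read-based TPM the leader was Camk2g-201 in replicate 1 and Camk2g-212 in replicate 2. By read-based counts Camk2g-201 led in both libraries, with 49.0% and 43.4%. The leading transcript was the same in both libraries for 9 of 9 genes by alignment-based TPM, for 8 by read-based TPM and for 8 by expected counts.

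The other 5 genes had 1 leading transcript each. Camk2n1 and Camk2n2 have 1 annotated transcript. The leading transcript held 99.3% ± 0.321 of the TPM of Nrgn, 97.3% ± 0.224 of that of Calm2 and 99.7% ± 0.132 of that of Calm3. In the read-based table of replicate 1, the leading transcript of Calm3 held 91.8% and Calm3-204, a noncoding transcript of 482 bases, 107 TPM; in replicate 2 Calm3-204 stood at 0.00748 TPM.

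**Figure D3:**
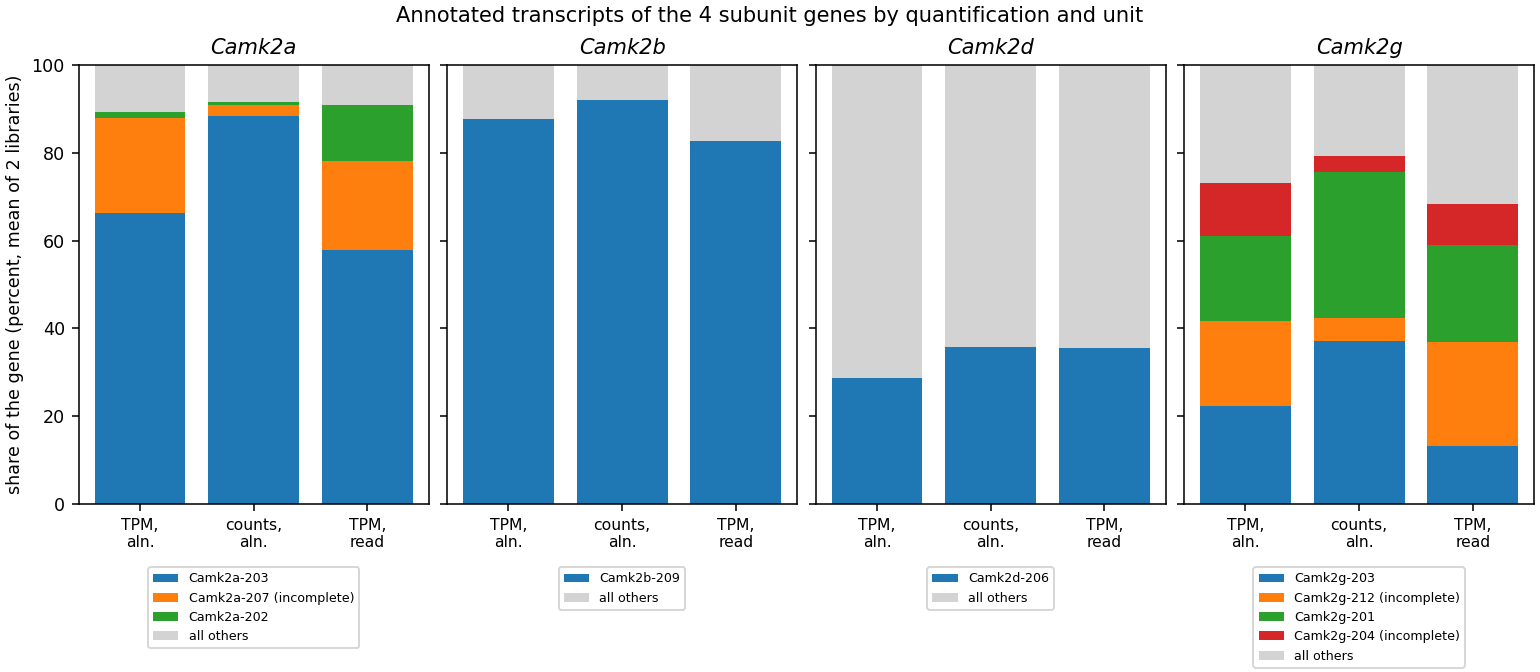
Mean share of each annotated transcript in the TPM (alignment-based and read-based) and in the alignment-based counts of the 4 subunit genes. Transcripts that passed 10% in both libraries in a table are coloured, all others are grey, and fragments with incomplete ends take more of TPM than of counts.

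Inclusion of the variable exons was estimated from the transcripts, as the TPM of coding transcripts with the exon over that of coding transcripts that span it. It rests on the assignment of reads to transcripts and is no count of junction reads. Of the 7 variable Camk2b exons with no alternative end, 3 were in nearly all coding transcripts and 4 in few. The exon of 75 bases was included at 95.7% and 96.6%, that of 72 bases at 99.9% and 100%, and that of 45 bases at 95.7% and 96.6%. The exon of 114 bases and the first of 2 exons of 129 bases, which follow them, were both at 0.514% and 0.339%. The second exon of 129 bases was at 1.26% in replicate 1 and 0.359% in replicate 2, so its mean of 0.809% rests on replicate 1. An exon of 33 bases that lies before the 75-base exon was at 0% in both libraries, and at 3.41% and 2.98% in the read-based tables. The first 3 sequences below are those of exons present in nearly all Camk2b mRNA, and the last is a rare exon with 10 proline codons in 42 whole codons (GRCm38, no capitals):
Camk2b exon of 75 bases (chr11:5987057-5987131, minus strand): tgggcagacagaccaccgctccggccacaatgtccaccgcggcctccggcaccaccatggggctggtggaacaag
Camk2b exon of 72 bases (chr11:5982501-5982572, minus strand): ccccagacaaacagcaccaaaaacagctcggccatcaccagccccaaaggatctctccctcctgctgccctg
Camk2b exon of 45 bases (chr11:5981070-5981114, minus strand): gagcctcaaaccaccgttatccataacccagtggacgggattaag
Camk2b exon of 129 bases, first (chr11:5977812-5977940, minus strand): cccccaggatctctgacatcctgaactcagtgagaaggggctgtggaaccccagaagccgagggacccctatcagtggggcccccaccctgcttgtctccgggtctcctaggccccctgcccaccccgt
The read-based tables gave 91.1% for the 75-base exon and 1.15% for the first 129-base exon.

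The 33-base linker exon known from nuclear forms of the kinase was frequent in Camk2g and rare in Camk2d. In Camk2g its inclusion was 48.0% and 47.4% (47.7% ± 0.443). In Camk2d it was 0.381% and 0.652% (0.516% ± 0.192). Camk2a also has an exon of 33 bases, with an inclusion of 13.7% and 11.8%. The ranges of these 3 genes did not overlap. The Camk2d and Camk2g sequences are shown with a run of lysine or arginine codons in capitals, which in nuclear forms acts as a localization signal:
Camk2d exon of 33 bases (chr3:126802937-126802969, plus strand): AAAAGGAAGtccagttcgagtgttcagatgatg
Camk2g exon of 33 bases (chr14:20747819-20747851, minus strand): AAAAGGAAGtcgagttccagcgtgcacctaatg
Between these exons 7 of 33 bases differed, and 2 of 11 codons encode another residue. The read-based tables gave 62.1% for Camk2g and 1.97% for Camk2d. Over transcripts with complete ends alone, Camk2g was at 40.1% ± 4.02.

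Camk2d has a pair of 73-base exons that replace each other upstream of the linker. The upstream exon was included at 76.6% in replicate 1 and 86.3% in replicate 2 (81.4% ± 6.89), and the downstream exon at 23.4% and 13.7% (18.6% ± 6.89). The read-based tables gave 73.2% and 84.5% for the upstream exon, in the same order. The transcript Camk2d-203, which carries the downstream exon, had a posterior SD of 216 of 787 counts in replicate 1 and 164 of 580 in replicate 2. Capitals mark the bases that differ within the pair:
Camk2d upstream exon (chr3:126770785-126770857, plus strand): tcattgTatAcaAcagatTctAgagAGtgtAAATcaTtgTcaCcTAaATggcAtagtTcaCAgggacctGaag
Camk2d downstream exon (chr3:126771774-126771846, plus strand): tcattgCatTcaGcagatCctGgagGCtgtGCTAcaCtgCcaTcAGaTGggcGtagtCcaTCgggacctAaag
Of 73 bases 23 differed, and 5 of 24 whole codons encode another residue. In the linker of Camk2d, the exon of 60 bases was included at 82.0% and 77.7% (79.8% ± 3.07) and that of 42 bases at 73.6% and 74.5% (74.1% ± 0.671). Over complete transcripts they were at 84.0% ± 7.75 and 86.4% ± 4.39, and the read-based tables gave 84.2% and 79.9%.

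Of the other Camk2g exons, those of 69, 63 and 114 bases were at intermediate rates that moved with the transcripts counted, and that of 229 bases was at 0% and 0.513%. The 69-base exon was at 35.4% ± 2.27 over all spanning transcripts and at 56.0% ± 4.06 over complete ones. The 63-base exon was at 39.2% ± 0.508, and at 0% over complete transcripts, because only incomplete ones carry it. The 114-base exon was at 15.9% ± 2.13 and, over complete transcripts, at 2.12% ± 0.126.

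**Figure D4:**
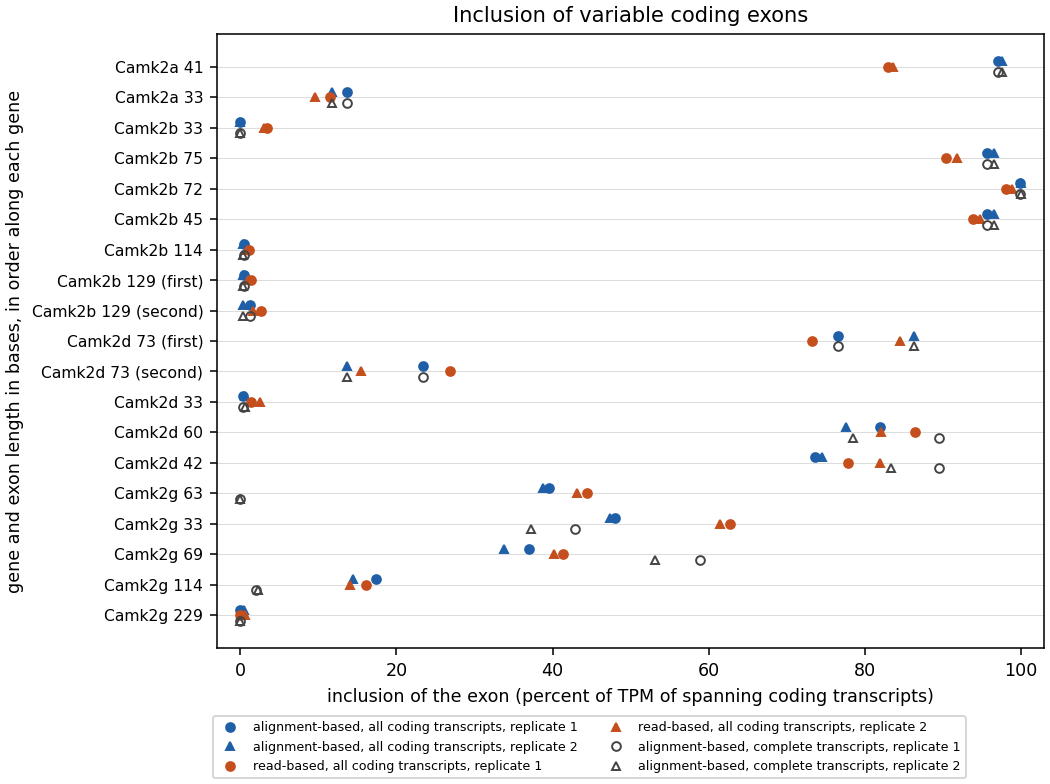
Inclusion of variable exons in percent by gene and exon length, for both libraries, in both quantifications and over complete transcripts. Exons with an alternative end are left out. Camk2b exons lie near 100 or near 0, 4 of 5 of Camk2g between in the tables of all coding transcripts, and the 73-base exons of Camk2d show the widest gap between libraries among exons measured over all spanning transcripts.

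Genes that work with CaMKII were detected throughout, and all 37 in 6 lists were above 1 TPM in both libraries. Of these 37 genes 0 were called different, against 0.307% of the 18562 genes tested. At so low a share, 0 calls are no result about these genes. Among the calmodulin-dependent kinase cascade, Camkv, a kinase-like protein, led at 156 ± 5.66 TPM, followed by Camkk2 (109 ± 3.57), which activates other kinases of the cascade, and Camk4 (70.8 ± 3.06), with Camk1g lowest at 20.5 ± 0.233. Calcineurin, the calmodulin-dependent phosphatase, was led by its subunits Ppp3ca (387 ± 22.8), Ppp3r1 (303 ± 12.5) and Ppp3cb (118 ± 4.65), with Ppp3cc lowest at 10.2 ± 0.375. Of the protein phosphatases and regulators, Ppp1cb (165 ± 13.1), Ppp1ca (133 ± 10.9) and Ppp1cc (80.1 ± 6.71) were highest and Ppm1f (24.6 ± 0.240) lowest.

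Other IQ-motif proteins stood below Nrgn: Pcp4 at 204 ± 2.67 TPM, Gap43 at 142 ± 10.1 and Pcp4l1 at 51.8 and 48.1 TPM in the libraries. Of the synaptic binding partners, the scaffold Dlg4 (380 ± 7.64), the NMDA receptor subunit Grin2b (127 ± 1.80) and the AMPA receptor subunit Gria1 (105 ± 0.212) led, and the actinin Actn2 (7.19 ± 0.778) was lowest. For 4 of the 6 partners, Dlg4, Grin2b, Gria1 and Lrrc7, the interval of the ratio lay above 1, and for the other 2 it held 1. This was so for 8.17% of all genes and for 919 of the 5679 genes whose mean count reached 1000, as it did for these 4. The median log2 ratio of the 6 partners was 0.066, against -0.0011 over all genes and 0.0069 over those 5679. In other lists the intervals of the phosphatase gene Ppp1ca, the regulator gene Ppp1r1a and Gap43 lay below 1. This was so for 6.89% of all genes and for 541 of the 5679 genes whose mean count reached 1000, as it did for these genes. Those of Camk1d, Rcan1, Ppm1e and Rbfox2, whose mean counts also reached 1000, lay above 1, as for 8.17% of all genes and for 919 of those 5679. Of the splicing factors studied on Camk2 pre-mRNAs, Rbfox3 (151 ± 3.97), Rbfox1 (145 ± 2.65) and Rbfox2 (110 ± 0.516) were highest and Ptbp1 (27.8 ± 2.00) lowest.

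**Figure D5:**
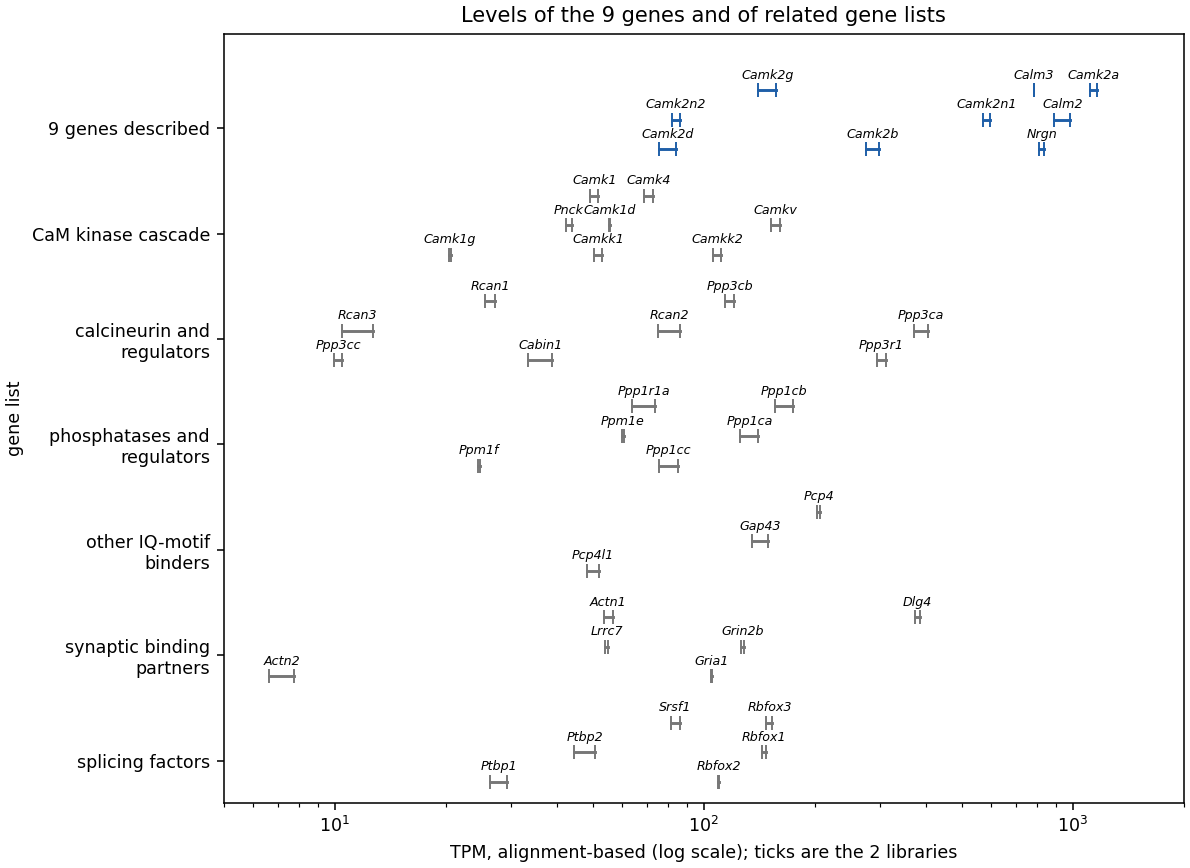
Alignment-based TPM on a log scale of the 9 genes and of the 37 genes in 6 related lists, where the ends of each bar are the libraries. Camk2a, Calm2, Nrgn, Calm3 and Camk2n1 lie above every gene of the lists, and Camk2b, Camk2g, Camk2n2 and Camk2d lie among them.

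Few counts were assigned to copies of the calmodulin genes. Reads that match both a gene and its copy were not counted apart, so how many were shared is not known. Among the 8 genes searched (Camk2a was not searched), Gm15720, a processed pseudogene, was the only other gene that matched at 98% identity along 80% or more of the shorter transcript. It resembles Calm2 and held 4.01 and 2.65 counts. At 90% identity, 3 pseudogenes of Calm2 together held 20.0 and 15.5 counts, and 1 of Calm3 held 24.0 and 20.95 counts. Genes that overlap Camk2a, Camk2d or Camk2n2 shared 0 exon bases with them.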

How the data were processed

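The members and the gene lists were chosen with earlier results of these data known. Per the lists of files deposited with each library, the tables are on mm10 with GENCODE M21. Gene and transcript tables derived from transcriptome alignments hold expected counts and TPM as deposited by the authors. A further transcript table, derived from the reads and an index, holds estimated counts and TPM as deposited. Which aligner and which quantifiers were used is not given in the sources used here. The deposited TPM sum is fixed across all features, with spike-ins and transfer RNAs among them. Reads of CAST/EiJ alleles were quantified against this reference, and the effect of that was not tested.

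Expected counts were rounded. Scaling used the TMM method of edgeR 4.0.16 under R 4.3.3 on genes whose mean count reached 10, giving a size of 1.01 for replicate 2 relative to replicate 1. Log2 ratios used a prior count of 0.5 and exact Clopper-Pearson 95% intervals from the 2 counts. These cover counting error only, since they are built from the 2 counts alone. PCR copies of a molecule, which carry no identifier here, are counted as separate reads, so the intervals may be too narrow. The edgeR biological coefficient of variation, fitted with an intercept alone, was 4.08%. A single group allows no comparison of conditions, so p-values are absent. Counts were simulated for the 18562 genes of this comparison, with the same dispersion for every gene. Changed genes reached a mean count of 100. The rule called 1 of the 18362 genes left as they were. It called 13 of 50 genes simulated at 2-fold (the threshold), 47 of 50 at 3-fold and 50 of 50 at 4-fold. These figures hold for that setting, which leaves out differences in dispersion between genes.

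Named genes are the 9 members, transcripts with at least 10% of a gene's TPM in both libraries of either kind of transcript table, and of each list the 3 highest and the lowest by mean TPM; other transcripts, Lrrc7, Ppp1r1a, Camk1d, Rcan1 and Ppm1e were named after their values were seen. Some genes of the lists are not reported here, and the counts and sums leave them out. Exon inclusion was added after the files were seen. Sequences come from the GENCODE M21 transcripts and copies were searched with blastn 2.17.0. Alternatives covered scaling, filters, prior count, fold limit, quantification, unit and leaving out a replicate.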

Additional observations from a re-analysis of the deposited data

How the results depend on the processing

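No paired analysis was possible because the series holds 1 group. None of the 9 genes was called under DESeq2 size factors or spike-in scaling, where 0.307% of all genes were called each time. The same held for total-count scaling (0.296% of all genes), read-based counts (0.218%) and a 1.5-fold limit (0.479%). At such shares, 0 calls are no result about the 9 genes. The count of all genes called rose from 57 to 89 with a 1.5-fold limit and to 86 with no minimum count, and was 12 with a minimum count of 100, where fewer genes were tested. Under total-count scaling the log2 ratios of Camk2n1 and Camk2n2 turned negative (-0.014 and -0.021) and the interval of Camk2b left out a ratio of 1; Camk2n2 was also negative read-based (-0.0040). The interval of Camk2n1 left out 1 with spike-in scaling and read-based. In the read-based tables the share of the subunit sum was 17.0% for Camk2b and 9.97% for Camk2g. Leaving out a replicate moved the share of Camk2a between 68.3% and 69.3%. Mean levels over nuclear protein-coding genes alone were higher for all 9 genes, by construction. No alternative varied the depth.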
